A study of Homo sapiens with 36 samples.

Results

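The 39 genes described here encode factors that build ribosomes. They were taken by name, sorted by step of the pathway: 6 act in transcription by RNA polymerase I (Pol I), 5 belong to small nucleolar ribonucleoproteins (snoRNPs), 10 act in assembly of the small ribosomal subunit, 14 in assembly of the large subunit, and 4 are nucleolar proteins with several roles. All 39 were found among the 26468 genes of the deposited table, and all 39 were among the 15542 genes tested, which had a level of at least 1 RPKM (reads scaled by gene length and library size) in at least 3 libraries. RNA was sequenced from 6 established human colon cancer lines, labelled HCT 116, SW 480, HT-29, COLO 205, HCT-15 and COLO 320. Each was grown for 24 h with 0.5 µM JQ1 or with the solvent DMSO and collected in log phase, giving 3 libraries per line and treatment and 36 in all. JQ1 is a small molecule that blocks the acetyl-lysine pockets of the BET bromodomain proteins. The labels name no engineered allele and no second agent in any of the 12 groups.

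A ribosome starts in the nucleolus, where Pol I copies the ribosomal DNA into a long precursor RNA. snoRNPs modify that precursor, and a succession of assembly factors folds and cuts it into the RNAs of the small and the large subunit while ribosomal proteins join. Growing cancer cells make ribosomes at a high rate, and MYC is a textbook activator of many genes of this pathway.

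With JQ1, 37 of the 39 genes were lower and 0 were higher in the mean over the 6 lines, against 48.3% of all genes tested lower and 40.2% higher. The largest falls were those of TCOF1, a scaffold of nucleolar transcription (1.94-fold), LYAR, a nucleolar zinc-finger protein (1.9-fold), and NOP16, a large-subunit factor (1.8-fold). The median change of the 39 genes was -0.42 on the log2(RPKM + 0.5) scale, on which all differences here are given, and the median of all genes tested was -0.04. A gene was called when its adjusted p was under 0.05 in limma with Benjamini-Hochberg adjustment over all genes tested. None of the 39 reached a 2-fold fall in this mean, a size that 1.85% of all genes passed. The levels are relative to the RNA of the whole library, through a divisor set by the authors. In such bulk samples, fewer cells with a transcript and less of it per cell cannot be told apart. With the 6 lines in place of the libraries as the unit, 29 of the 39 genes were lower, against 20.1% of all genes tested in that fit. The 8 that lost the call were POLR1A, POLR1C, UBTF, NOP56, WDR3, BOP1, GRWD1 and NPM1, with adjusted p from 0.0518 to 0.709. RRN3 and RRP12, which had no call, were called higher when libraries were centred on their median gene (adjusted p = 0.00897 and 0.0225).

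The fall was seen in every line and differed in size. In HT-29, 37 of 39 genes were lower and 2 higher, against 37.3% and 36.6% of all genes tested, with a median of -0.84. In COLO 205, 36 were lower and 2 higher, against 38.6% and 34.2%, with a median of -0.59. The 2-fold mark was passed downward by 12 genes in HT-29, where 5.9% of all genes passed it, and by 6 in COLO 205, where 5.63% did. The COLO 205 count was 2 under quantile scaling and 4 without JQ1 replicate 3 of that line. The other 4 lines had smaller changes and 0 genes past 2-fold. In HCT-15, 35 genes were lower and 1 higher, against 35.4% and 34.8%, with a median of -0.37. In HCT 116, 32 were lower and 0 higher, against 35.5% and 32.4%, with a median of -0.35. In COLO 320, 35 were lower and 2 higher, against 37.2% and 31%, with a median of -0.32. SW 480 had the smallest median, -0.26, with 26 genes lower and 5 higher, against 40.1% and 33.9%. Falls of 2-fold were called for 3.14% of all genes in HCT 116, 4.88% in SW 480, 3.55% in HCT-15 and 4.66% in COLO 320. The median of all genes tested lay between -0.02 and 0 in each line. Over the processing alternatives given at the end, the median of the 39 genes ran from -0.49 to -0.35 in HCT-15. In HCT 116 that median ran from -0.37 to -0.33, an overlapping range. Lower in each of the 6 lines were 23 of the 39 genes, against 11.7% of all genes tested, and a further 8 were lower in 5 lines, against 8.79%. Calls of both signs, lower in at least 1 line and higher in another, were found for 6 of the 39 and for 33.6% of all genes tested. Libraries without overlap were common. Of the 15542 genes, 5635 (HCT 116) to 6206 (SW 480) had all JQ1 libraries below all DMSO libraries, and 5051 (COLO 320) to 5775 (HT-29) had them above. Of the 39 genes, 26 (SW 480) to 37 (HT-29 and COLO 205) had them below and 1 to 5 above. Statements on overlap for single genes below stand against these counts.

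**Figure D1:**
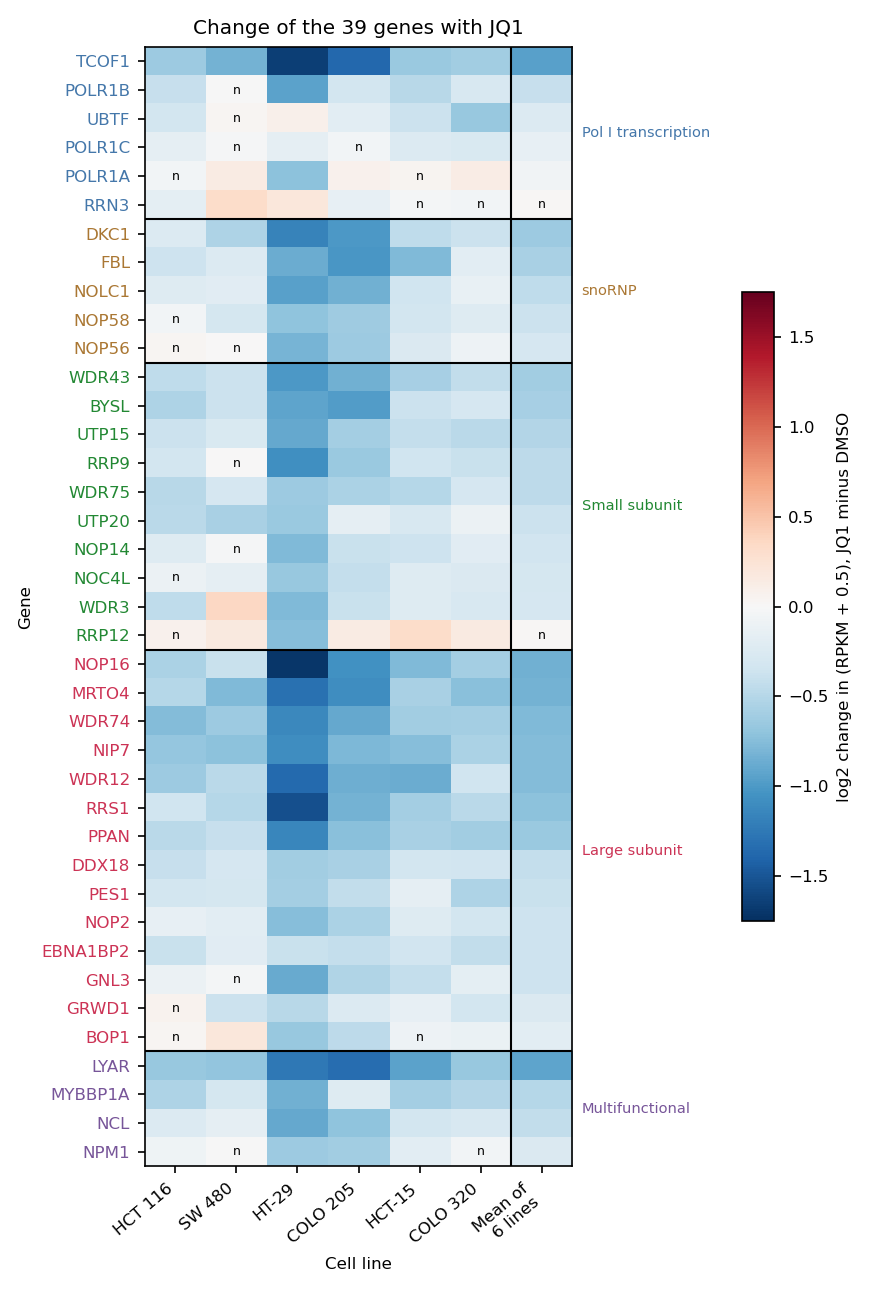
Heat map of the change of each of the 39 genes (rows, sorted by step and then by mean change) in each cell line and in the mean of the 6 lines (columns); colour is JQ1 minus DMSO in log2(RPKM + 0.5) from 3 libraries per group, and "n" marks a change that did not pass an adjusted p of 0.05 in limma. The HT-29 column is the darkest blue, reaching -1.70 for NOP16, and RRN3 and RRP12 are the rows without a call in the mean.

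Libraries held 18.8 to 53.1 M reads in genes (median 24.5 M), and the fewest reads of any of the 39 genes in any library was 306, for PPAN. MYC and HEXIM1, whose transcripts are common readouts of BET inhibition, served as checks of the treatment. MYC, the transcription factor named above, fell in each line, by 0.85 in HCT 116, 0.14 in SW 480, 1.35 in HT-29, 1.23 in COLO 205, 0.75 in HCT-15 and 0.65 in COLO 320. HEXIM1, which holds P-TEFb inactive, rose in each line, from 2.09-fold in HCT-15 to 6.35-fold in COLO 205. Of 9 markers of colon epithelium, 4 to 9 reached 1 RPKM in a group, fewest in COLO 320, where the keratin KRT19 was listed at 0 with JQ1. Their summed level went from 3980.0 to 4040.0 RPKM with DMSO to 8990.0 to 9090.0 RPKM with JQ1 in HT-29, and from 2330.0 to 2350.0 RPKM to 7070.0 to 7160.0 RPKM in HCT-15. It was also higher with JQ1 in HCT 116, SW 480 and COLO 205, and lower in COLO 320 (1150.0 to 1170.0 RPKM with DMSO, 888 to 921 RPKM with JQ1). Keratins weighed most in the HT-29 and HCT-15 sums: with DMSO, KRT8 and KRT18 stood at 1201 and 1660 RPKM and at 558.4 and 840.5 RPKM. Markers at 1 RPKM went from 9 to 8 with JQ1 in HT-29, from 8 to 7 in HCT-15 and from 5 to 4 in COLO 320. They went from 7 to 8 in COLO 205 and stayed at 6 in HCT 116 and 7 in SW 480. With DMSO, the marker CDX2 alone stood at 1099 RPKM in COLO 320, and the other markers at 0.007 (CDH1) to 35.8 RPKM (KRT18), with EPCAM at 1.37 RPKM. Elsewhere CDX2 stood at 0.33 to 41.3 RPKM and EPCAM at 185.8 to 808 RPKM. The 10 housekeeping genes summed to 3610.0 to 3640.0 RPKM with DMSO and 5550.0 to 5640.0 RPKM with JQ1 in HCT-15, and to 3570.0 to 3620.0 and 4490.0 to 4570.0 RPKM in HCT 116. In the other lines that sum lay between 2250.0 and 4600.0 RPKM over both treatments. The 6 fibroblast markers summed to at most 3.38 RPKM in every library outside COLO 320 and to 15.5 to 15.8 RPKM with DMSO and 2.93 to 3.23 RPKM with JQ1 in COLO 320. The 6 leukocyte markers summed to 1500.0 to 1550.0 RPKM with DMSO and 1110.0 to 1140.0 RPKM with JQ1 in HT-29, to 1200.0 to 1220.0 and 610.0 to 641 RPKM in COLO 205, and to at most 7.41 RPKM elsewhere. With DMSO, lysozyme (LYZ) stood at 1518 RPKM in HT-29 and 1057 RPKM in COLO 205, the macrophage marker CD68 at 6.58 and 158.2 RPKM, and the pan-leukocyte gene PTPRC at or near 0 in both. The 5 endothelial markers summed to at most 0.471 RPKM. The part of these differences in the changes below was not tested.

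The start regions of the genes were read for CACGTG, the E-box hexamer that MYC binds with its partner MAX. The hexamer is its own reverse complement, so a search of one strand covers both. RefSeq windows on GRCh38.p14 that run from 250 bases before a gene's start to 50 after it were at hand for 32 of the 39 genes; TCOF1, NOP58, NOLC1, RRP12, BOP1, RRS1 and DDX18 had no entry. The hexamer was in 11 of the 32 windows (34.4%), in 2548 of all 35116 windows of the table (7.26%) and in 1127 of the 11426 windows of tested genes (9.86%). The 5 genes with the hexamer and the largest mean falls show where it sits, on the strand of the gene, with the hexamer in capitals and 12 bases on either side.
MRTO4: cgtcttccgccgCACGTGgattcagcgcga
WDR43: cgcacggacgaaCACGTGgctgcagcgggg
BYSL: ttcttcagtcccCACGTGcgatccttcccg
FBL: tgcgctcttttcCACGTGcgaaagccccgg
MYBBP1A: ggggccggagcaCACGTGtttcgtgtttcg

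The MRTO4 stretch is chr1:19251807-19251836 on the plus strand, and its hexamer begins 14 bases after the annotated start. WDR43 is shown at chr2:28894658-28894687, plus strand, with the hexamer 3 bases after the start, and BYSL at chr6:41921515-41921544, plus strand, 28 bases after it. On the minus strand, FBL is shown at chr19:39846356-39846385, 6 bases after the start, and MYBBP1A at chr17:4555340-4555369, 27 bases after it. In 9 of the 32 genes (28.1%) the hexamer was found only across or after the start, at positions from 5 bases before it to 35 after it, against 320 of all windows (0.911%). In the 250 bases before the start alone, 2 of 32 genes held it (6.25%), UTP20 and EBNA1BP2. All windows had it there in 6.34%, and the windows of tested genes in 8.69%. By step, the hexamer was in 0 of 5 windows of Pol I genes, 1 of 3 of snoRNP genes, 5 of 9 of small-subunit genes, 4 of 11 of large-subunit genes and 1 of 4 of the multifunctional genes. The genes with the hexamer had a median mean change of -0.46 (from -0.83 to -0.33) and the 21 genes without it one of -0.41 (from -0.92 to 0.02), so the ranges overlapped. Among all tested genes the medians were -0.07 with it and -0.04 without it. A match of letters in a window does not show binding, which was not measured here.

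**Figure D2:**
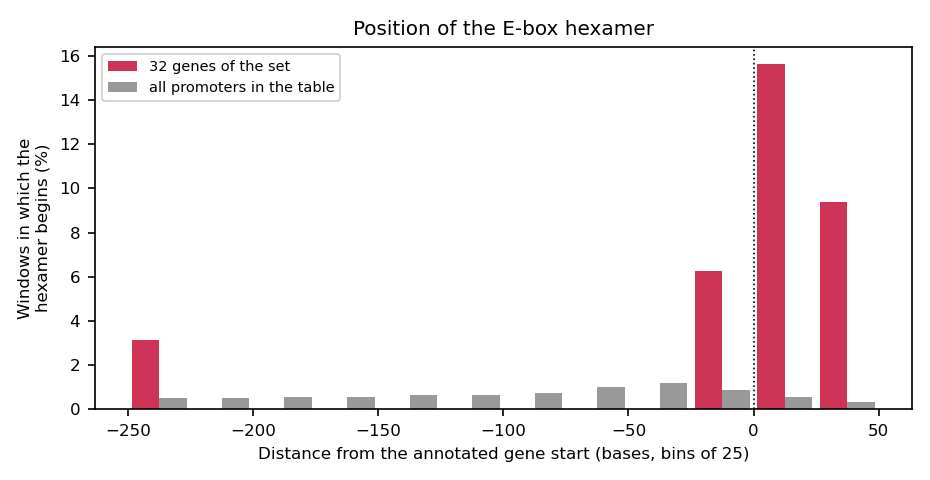
Share of start windows in which CACGTG begins (vertical axis, percent) by distance from the annotated gene start (horizontal axis, bins of 25 bases), for the 32 genes of the set with a window and for all 35116 windows of the RefSeq table. The bars of the 32 genes are highest in the bins from the start to 49 bases after it, where 8 of them hold the hexamer.

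Among the 39 genes, the Pol I step had the smallest median change, -0.19, and 5 of its 6 genes were lower and 0 higher in the mean over the lines. The further genes of the pathway given below did not keep this order of the steps. The counts in the mean given for each step stand against the 48.3% lower and 40.2% higher among all genes tested. TCOF1 encodes treacle, which holds Pol I and UBTF at the ribosomal DNA. In HT-29, TCOF1 read 31.2, 31.2 and 31.6 RPKM with DMSO and 9.74, 9.28 and 10.1 RPKM with JQ1. COLO 205 gave 22.3, 24.4 and 23.8 RPKM with DMSO and 8.89, 8.80 and 8.65 RPKM with JQ1. All treated libraries of these lines lay below their controls, with a fall of 3.12-fold and 2.58-fold. In SW 480, TCOF1 read 51.2, 49.1 and 51.2 RPKM with DMSO and 27.3, 28.3 and 29.01 RPKM with JQ1. HCT 116 gave 42.4, 42.8 and 42.9 RPKM with DMSO and 27.7, 27.9 and 26.4 RPKM with JQ1. No JQ1 library of TCOF1 overlapped the DMSO libraries of its line here. In HCT-15, TCOF1 read 58.97, 59.8 and 59.4 RPKM with DMSO and 36.8, 38.7 and 37.1 RPKM with JQ1. COLO 320 gave 39.1, 38.02 and 38.8 RPKM with DMSO and 24.9, 25.8 and 25 RPKM with JQ1. TCOF1 thus fell in 6 of 6 lines, with log2 changes from -1.64 to -0.61 (largest adjusted p 6.61e-17).

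RRN3, the factor that brings Pol I to its promoter, had no call in the mean (0.02, adjusted p = 0.102) and moved in opposite directions in single lines. In SW 480, RRN3 read 15.1, 15.98 and 15.1 RPKM with DMSO and 19.7, 18.9 and 19.5 RPKM with JQ1. HT-29 gave 23.8, 23.8 and 22.4 RPKM with DMSO and 26.4, 27.4 and 27.1 RPKM with JQ1. All treated libraries of these lines lay above their controls, and RRN3 rose by 0.32 and 0.20. In HCT 116, RRN3 read 32.7, 31.96 and 31.9 RPKM with DMSO and 29.4, 27.9 and 28.6 RPKM with JQ1. COLO 205 gave 17.8, 17.9 and 17.5 RPKM with DMSO and 16.4, 16.02 and 15.4 RPKM with JQ1. There the treated libraries lay below the controls, and RRN3 fell by 0.17 and 0.15. In HCT-15, RRN3 read 11.5, 11.1 and 11.4 RPKM with DMSO and 10.6, 11.4 and 11.2 RPKM with JQ1. COLO 320 gave 16.3, 16.8 and 16.5 RPKM with DMSO and 15.7, 15.8 and 16.2 RPKM with JQ1. Neither of these changes passed the test (-0.03 and -0.05), and in HCT-15 the groups overlapped. RRN3 was called lower in HCT-15 with total reads as the divisor (-0.15, adjusted p = 2.4e-05) and in COLO 320 with each line fitted alone (-0.05, adjusted p = 0.0442). Without SW 480 the mean of RRN3 was -0.04 (adjusted p = 0.0049). The RefSeq table names 4 pseudogenes of RRN3, whose reads the counting could share.

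The subunits of the polymerase differed among themselves. POLR1B, its second largest subunit, fell in 5 lines, most in HT-29, from 15.8 ± 0.34 to 7.98 ± 0.263 RPKM (SD, n = 3), and stood at 21.2 ± 0.69 and 21.1 ± 0.592 RPKM in SW 480. POLR1C, a subunit that Pol I shares with Pol III, was lower in 4 lines by at most 0.27. POLR1A, the largest subunit, fell in HT-29 alone among the lines, by 0.71, and was higher in SW 480 (0.14), COLO 320 (0.13) and COLO 205 (0.08). The COLO 205 call of POLR1A was lost when DMSO replicate 2 or 3 or JQ1 replicate 2 or 3 of that line was left out (adjusted p from 0.0749 to 0.332). POLR1A also lost that call with each line fitted alone, no filter on low values or a replicate block (adjusted p from 0.0517 to 0.214). Its mean over the lines was -0.06, and 0.07 without HT-29 (adjusted p = 0.000288). UBTF, which coats and opens the ribosomal DNA, fell most in COLO 320, from 50.5 ± 0.579 to 31.8 ± 0.395 RPKM, and rose by 0.09 in HT-29. That rise was 0.02 (adjusted p = 0.44) with total reads as the divisor. UBTF had no call in SW 480 (0.03) but was called higher there with median centring or quantile scaling (adjusted p = 0.0276 and 0.0061). The genes of this paragraph and those named further on with opposite changes in single lines were picked after their values had been seen.

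**Figure D3:**
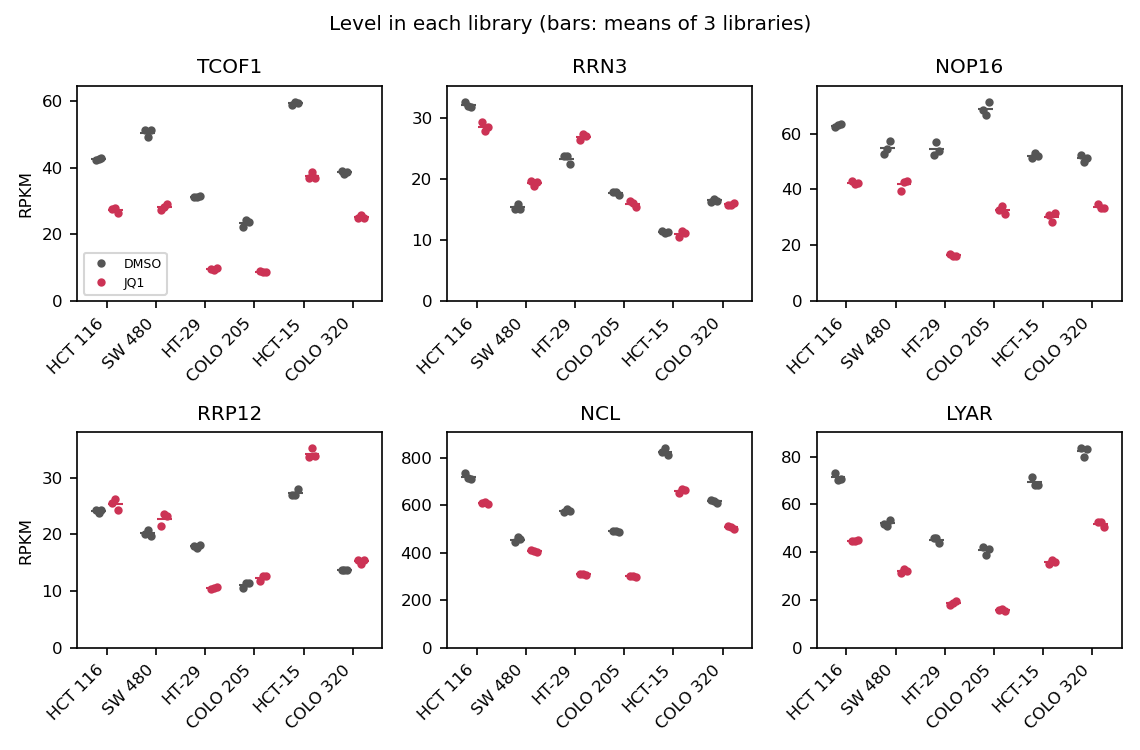
Level of 6 genes in each of the 36 libraries (vertical axes, RPKM from 0; horizontal axes, cell line; points, libraries; bars, means of 3). TCOF1, NOP16, NCL and LYAR lie lower with JQ1 in each line, RRN3 lies higher with JQ1 in SW 480 and HT-29, and RRP12 lies lower in HT-29 alone.

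All 5 snoRNP genes were lower in the mean, with a median of -0.45. DKC1, the pseudouridine synthase of the H/ACA particles, fell most. In HT-29, DKC1 read 157, 159 and 153 RPKM with DMSO and 67.5, 68.4 and 71.03 RPKM with JQ1. COLO 205 gave 123, 119 and 119 RPKM with DMSO and 59.6, 60.7 and 57.7 RPKM with JQ1. SW 480 gave 129, 136 and 137 RPKM with DMSO and 93.5, 89.8 and 91.3 RPKM with JQ1. Falls were 2.26-fold, 2.01-fold and 1.46-fold, and no libraries overlapped. In HCT-15, DKC1 read 104, 102 and 100 RPKM with DMSO and 75.1, 76.6 and 73.5 RPKM with JQ1. COLO 320 gave 139, 138 and 139 RPKM with DMSO and 107, 107 and 105 RPKM with JQ1. HCT 116 gave 87.9, 84.5 and 84.97 RPKM with DMSO and 75.3, 70.9 and 72.2 RPKM with JQ1. HCT 116, the line with the lowest DKC1 level in DMSO, had the smallest fall, 1.18-fold.

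The core proteins of the C/D particles, which guide 2′-O-methylation, fell by unequal amounts. FBL, the methyltransferase, was lower in 6 lines, from 157 ± 2.77 to 77.3 ± 3.88 RPKM in COLO 205 and from 265 ± 2.2 to 234 ± 2.63 RPKM in COLO 320. NOP58 was lower in 5 lines and NOP56 in 4. NOP58 had no call in HCT 116 (-0.05) except with each line fitted alone, median centring or total reads as the divisor (adjusted p from 0.00726 to 0.0483). In HCT 116, NOP56 read 180.0, 179.6 and 169 RPKM with DMSO and 181, 185 and 175 RPKM with JQ1. SW 480 gave 152, 158 and 155 RPKM with DMSO and 154, 158 and 154 RPKM with JQ1. In these lines treated and control libraries overlapped, with changes of 0.03 and 0.01, the first of which was called under quantile scaling (0.06, adjusted p = 0.0373). In HT-29, NOP56 read 124, 126 and 125 RPKM with DMSO and 69.6, 71.2 and 71.6 RPKM with JQ1. COLO 205 gave 186, 189.9 and 183 RPKM with DMSO and 121, 122 and 116 RPKM with JQ1. Here it fell 1.76-fold and 1.55-fold without overlap. In HCT-15, NOP56 read 200.2, 201 and 204 RPKM with DMSO and 167, 171 and 167 RPKM with JQ1. COLO 320 gave 149.6, 144 and 144 RPKM with DMSO and 136, 138 and 136 RPKM with JQ1. It fell by 0.26 and 0.10, and the COLO 320 fall was lost under quantile scaling (0.0033, adjusted p = 0.942).

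NOLC1, a chaperone that ferries snoRNPs to the nucleolus, was among the 4 genes with the smallest p of the test for a difference of the JQ1 effect between lines. In HT-29, NOLC1 read 128, 134 and 133 RPKM with DMSO and 67.1, 68.1 and 68.97 RPKM with JQ1. COLO 205 gave 141, 138 and 133 RPKM with DMSO and 76.1, 77.5 and 74.5 RPKM with JQ1. HCT-15 gave 184, 181 and 178 RPKM with DMSO and 142, 144 and 141 RPKM with JQ1. These falls were 1.93-fold, 1.8-fold and 1.27-fold. In HCT 116, NOLC1 read 207, 203 and 200.1 RPKM with DMSO and 175, 174 and 173 RPKM with JQ1. SW 480 gave 90.8, 96.3 and 93.96 RPKM with DMSO and 82.3, 81.3 and 82.03 RPKM with JQ1. COLO 320 gave 106, 108 and 109 RPKM with DMSO and 99.3, 100.3 and 97.5 RPKM with JQ1. These were falls of 1.17-fold, 1.14-fold and 1.09-fold, again with no overlap between the groups. Introns of NOP56, NOP58, DKC1, WDR43, GNL3, PPAN and NCL hold snoRNA genes in the RefSeq table, and strand is not stated in the labels, so reads of overlapping genes could not be set apart.

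Of the 10 small-subunit genes, 9 were lower and 0 higher in the mean, with a median of -0.42. WDR43, a subunit of the complex that first meets the growing precursor RNA, fell most. In HT-29, WDR43 read 48.9, 47.1 and 46.4 RPKM with DMSO and 23.4, 22.6 and 24.3 RPKM with JQ1. COLO 205 gave 42.8, 41.4 and 42.1 RPKM with DMSO and 23.2, 23.6 and 22.8 RPKM with JQ1. HCT-15 gave 59.4, 62.4 and 61.8 RPKM with DMSO and 39.99, 41.1 and 41.3 RPKM with JQ1. The fall was 2.01-fold in HT-29, 1.8-fold in COLO 205 and 1.49-fold in HCT-15. In HCT 116, WDR43 read 80.4, 78.4 and 78.2 RPKM with DMSO and 58.4, 56.6 and 58.3 RPKM with JQ1. COLO 320 gave 73.8, 72.1 and 72.8 RPKM with DMSO and 54.9, 52.7 and 54.8 RPKM with JQ1. SW 480 gave 54.5, 58.5 and 56.9 RPKM with DMSO and 44.4, 42.5 and 44.3 RPKM with JQ1. With falls of 1.36-fold, 1.34-fold and 1.29-fold, WDR43 was lower in 6 of 6 lines and its groups overlapped in none. UTP15 and WDR75, other subunits of that complex, were lower in 6 lines as well, by 0.26 to 0.90 and by 0.29 to 0.63.

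RRP12, a factor in the export of the young small subunit, did not follow its step. In HT-29, RRP12 read 17.9, 17.6 and 18.04 RPKM with DMSO and 10.3, 10.5 and 10.6 RPKM with JQ1, a fall of 1.67-fold. In HCT-15, RRP12 read 26.9, 27.02 and 28.03 RPKM with DMSO and 33.6, 35.2 and 33.8 RPKM with JQ1, a rise of 1.25-fold. So the treated libraries lay below every control in one line and above every control in the other. In SW 480, RRP12 read 20.1, 20.7 and 19.8 RPKM with DMSO and 21.4, 23.6 and 23.2 RPKM with JQ1. COLO 205 gave 10.5, 11.3 and 11.3 RPKM with DMSO and 11.7, 12.7 and 12.7 RPKM with JQ1. COLO 320 gave 13.6, 13.7 and 13.7 RPKM with DMSO and 15.4, 14.8 and 15.5 RPKM with JQ1. These were rises of 0.17, 0.15 and 0.15, with no overlap. In HCT 116, RRP12 read 24.3, 23.8 and 24.2 RPKM with DMSO and 25.6, 26.2 and 24.3 RPKM with JQ1, and the difference did not pass the test (0.07, adjusted p = 0.0695). It passed with a replicate block, quantile scaling or voom (adjusted p from 0.0363 to 0.0438), without JQ1 replicate 3 of HCT 116 (0.0194) and without JQ1 replicate 1 of SW 480 (0.0442). Its mean over the lines was 0.02 (adjusted p = 0.206). That mean was 0.17 without HT-29 and -0.04 without HCT-15 (adjusted p = 0.0212).

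WDR3, a subunit of the UtpB complex, fell in 5 lines and rose in SW 480, from 18.2 ± 0.438 to 23.6 ± 0.474 RPKM. RRP9, a protein of the U3 snoRNP, was lower in 5 lines, most in HT-29 (2.1-fold), and stood at 36.1 ± 0.158 and 36.2 ± 1.71 RPKM in SW 480. NOP14 and its partner NOC4L were each lower in 5 lines, without a call for NOP14 in SW 480 (-0.02) or for NOC4L in HCT 116 (-0.10). The NOC4L fall in SW 480 (-0.15) was lost without DMSO replicate 1 of that line (-0.10, adjusted p = 0.0794). In HCT 116, NOC4L was called lower with total reads, median centring or voom (adjusted p from 0.0232 to 0.0464). It was also called without DMSO replicate 1 (adjusted p = 0.0104) or JQ1 replicate 1 (0.0448) of that line, DMSO replicate 1 of SW 480 (0.0486) or DMSO replicate 3 of COLO 205 (0.0496). UTP20, a large scaffold protein of the same precursor, was lower in 6 lines, by 0.10 to 0.65. The fall of UTP20 in COLO 320 was lost when libraries were centred on their median gene (-0.06, adjusted p = 0.106). BYSL, a late small-subunit factor, fell in 6 lines, most in COLO 205, from 128 ± 0.136 to 65.1 ± 0.708 RPKM. NOP14 overlaps the antisense gene NOP14-AS1, and their reads could not be told apart.

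All 14 large-subunit genes were lower in the mean, with the largest median fall of the steps among the 39 genes, -0.54. In HT-29, 7 of the 14 fell at least 2-fold, against 5.9% of all genes tested. NOP16 had the largest fall of this step. In HT-29, NOP16 read 52.2, 56.8 and 53.9 RPKM with DMSO and 16.8, 16.1 and 16.1 RPKM with JQ1. COLO 205 gave 68.5, 66.6 and 71.3 RPKM with DMSO and 32.5, 34.2 and 31.3 RPKM with JQ1. HCT-15 gave 51.2, 53.04 and 51.98 RPKM with DMSO and 30.9, 28.2 and 31.7 RPKM with JQ1. NOP16 fell 3.25-fold in HT-29, the largest fall of any of the 39 genes in any line, 2.09-fold in COLO 205 and 1.71-fold in HCT-15. In COLO 320, NOP16 read 52.2, 49.9 and 51.4 RPKM with DMSO and 34.9, 33.2 and 33.2 RPKM with JQ1. HCT 116 gave 62.2, 62.98 and 63.3 RPKM with DMSO and 43.2, 41.97 and 42.2 RPKM with JQ1. SW 480 gave 52.8, 54.3 and 57.5 RPKM with DMSO and 39.6, 42.8 and 42.9 RPKM with JQ1. Falls there were 1.51-fold, 1.47-fold and 1.31-fold. With DMSO, NOP16 had means of 51.2 to 62.8 RPKM in 5 lines and was highest in COLO 205, at 68.8 RPKM.

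PES1, BOP1 and WDR12 form the PeBoW complex, which acts in the maturation of the large-subunit RNA, and their mean changes were -0.39, -0.18 and -0.76. WDR12 was lower in 6 lines, from 1.28-fold in COLO 320 to 2.57-fold in HT-29. PES1 was lower in 6 lines as well, by 0.16 to 0.59. BOP1 was called lower in 3 lines and higher in 1. In HT-29, BOP1 read 15.8, 16.3 and 15.7 RPKM with DMSO and 9.88, 9.32 and 10.4 RPKM with JQ1. COLO 205 gave 14.6, 14.7 and 13.6 RPKM with DMSO and 10.1, 10.2 and 10.5 RPKM with JQ1. COLO 320 gave 30.04, 30.7 and 30.3 RPKM with DMSO and 27.9, 27.9 and 27.9 RPKM with JQ1. The treated libraries were the lower ones, and BOP1 fell by 0.67, 0.46 and 0.12. In SW 480, BOP1 read 11.6, 10.1 and 10.5 RPKM with DMSO and 12.01, 12.3 and 12.9 RPKM with JQ1, a rise of 0.20. HCT 116 gave 35.6, 36.9 and 38.9 RPKM with DMSO and 37.1, 37.9 and 39.6 RPKM with JQ1. HCT-15 gave 19.4, 21.5 and 20.1 RPKM with DMSO and 19.2, 19.6 and 18.5 RPKM with JQ1. Groups overlapped in HCT 116 and HCT-15 (0.04 and -0.09, adjusted p = 0.43 and 0.078). BOP1 was called lower in HCT-15 with total reads as the divisor (-0.21, adjusted p = 0.000127), with quantile scaling or voom (0.0308 and 0.0371), and without DMSO replicate 1 of HCT-15 (0.0287) or of SW 480 (0.0491). The fall of BOP1 in COLO 320 was lost with median centring (-0.08, adjusted p = 0.0898), quantile scaling (-0.09, 0.0764) and without DMSO replicate 2 of that line (-0.11, 0.0512).

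Among the other large-subunit genes, MRTO4, a placeholder for the ribosomal stalk, fell in 6 lines by 1.41-fold (HCT 116) to 2.47-fold (HT-29). WDR74, NIP7, RRS1 and PPAN were each lower in 6 lines, with mean changes of -0.77, -0.76, -0.71 and -0.65. RRS1, which helps to bring the 5S RNP to the precursor, fell 2.91-fold in HT-29 and 1.27-fold in HCT 116. PPAN shares exons with the read-through gene PPAN-P2RY11, and WDR74 overlaps the small nuclear RNA gene RNU2-2, so their levels are uncertain. DDX18, an RNA helicase, NOP2, an RNA methyltransferase, and EBNA1BP2 were lower in 6 lines, with mean changes of -0.42, -0.36 and -0.36. The falls of EBNA1BP2 ran from 0.20 in SW 480 to 0.43 in COLO 320. GNL3, or nucleostemin, a GTPase, was lower in 5 lines, with no call in SW 480 (-0.03) except with total reads as the divisor (-0.05, adjusted p = 0.0489). GRWD1 was lower in 5 lines, and in HCT 116 it stood at 45.6 ± 0.251 RPKM with DMSO and 47.7 ± 1.05 RPKM with JQ1 (adjusted p = 0.0641). That difference was called higher with quantile scaling, voom or each line fitted alone (adjusted p from 0.00435 to 0.0466) and without JQ1 replicate 1 of HCT 116 (0.0356), JQ1 replicate 1 of HCT-15 (0.0329) or DMSO replicate 1 of SW 480 (0.047).

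The 4 multifunctional nucleolar genes were all lower in the mean, with a median of -0.47. LYAR fell in 6 of 6 lines. In COLO 205, LYAR read 42.2, 38.9 and 41.2 RPKM with DMSO and 15.7, 16.4 and 15.5 RPKM with JQ1. HT-29 gave 45.7, 46 and 43.7 RPKM with DMSO and 17.9, 18.6 and 19.4 RPKM with JQ1. HCT-15 gave 71.6, 68.2 and 68.2 RPKM with DMSO and 35.2, 36.5 and 35.9 RPKM with JQ1. Treated levels were 2.52-fold, 2.39-fold and 1.92-fold lower. In SW 480, LYAR read 51.9, 51.1 and 53.3 RPKM with DMSO and 31.3, 33.1 and 32.3 RPKM with JQ1. HCT 116 gave 73.1, 70.3 and 70.7 RPKM with DMSO and 44.5, 44.7 and 44.99 RPKM with JQ1. COLO 320 gave 83.5, 80.02 and 83.1 RPKM with DMSO and 52.5, 52.7 and 50.7 RPKM with JQ1. The smallest fall of LYAR, 1.58-fold in COLO 320, still left the groups apart.

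NCL, or nucleolin, the most abundant of the 39 transcripts per length (613.9 RPKM on average without JQ1, n = 18), had the smallest p of the test for a difference between lines (adjusted p = 8.82e-22). In HT-29, NCL read 571, 585 and 575 RPKM with DMSO and 308, 311 and 307 RPKM with JQ1. COLO 205 gave 492, 491 and 487 RPKM with DMSO and 299.9, 302 and 298 RPKM with JQ1. HCT-15 gave 826, 839 and 811 RPKM with DMSO and 653, 667 and 664 RPKM with JQ1. These were falls of 1.87-fold, 1.63-fold and 1.25-fold. In COLO 320, NCL read 621, 619 and 609 RPKM with DMSO and 510.5, 508 and 501 RPKM with JQ1. HCT 116 gave 736, 715 and 709.6 RPKM with DMSO and 610.0, 615 and 606 RPKM with JQ1. SW 480 gave 444, 464 and 456 RPKM with DMSO and 409.5, 407 and 401 RPKM with JQ1. The falls of 1.22-fold, 1.18-fold and 1.12-fold were smaller than in HT-29, and no groups overlapped.

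NPM1, or nucleophosmin, a chaperone of the nucleolus, changed least of the 4. In HT-29, NPM1 read 148, 146 and 139 RPKM with DMSO and 89.1, 93.9 and 94.6 RPKM with JQ1. COLO 205 gave 176, 173 and 175 RPKM with DMSO and 116, 116 and 111 RPKM with JQ1. HCT-15 gave 164, 164 and 162 RPKM with DMSO and 147, 144 and 142 RPKM with JQ1. It fell 1.56-fold, 1.53-fold and 1.13-fold in these lines. In HCT 116, NPM1 read 192, 183 and 187 RPKM with DMSO and 182, 173 and 178 RPKM with JQ1. SW 480 gave 153, 164 and 161 RPKM with DMSO and 165, 151 and 161 RPKM with JQ1. COLO 320 gave 145, 153 and 145 RPKM with DMSO and 146, 142 and 143 RPKM with JQ1. NPM1 had no call in SW 480 or COLO 320, where groups overlapped, and its call in HCT 116 (-0.07) was lost without DMSO replicate 1 or 3 or JQ1 replicate 2 or 3 of that line (adjusted p from 0.0656 to 0.169). That call was also lost with quantile scaling, a replicate block, each line fitted alone or no filter on low values (adjusted p from 0.0545 to 0.166). The RefSeq table names 50 pseudogenes of NPM1, so its level is uncertain. Named pseudogenes were also listed for DDX18 (6), NOP56, WDR12 and NIP7 (3 each), PES1 and NCL (2 each), and FBL, NOLC1 and LYAR (1 each). Further overlaps with other genes include ARL10 for NOP16, MED20 for BYSL, SPNS2 for MYBBP1A, XPO5 for POLR1C and PDXDC1 for RRN3. MYBBP1A, a MYB-binding protein of the nucleolus, was lower in 6 lines, by 0.22 in COLO 205 to 0.84 in HT-29.

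**Figure D4:**
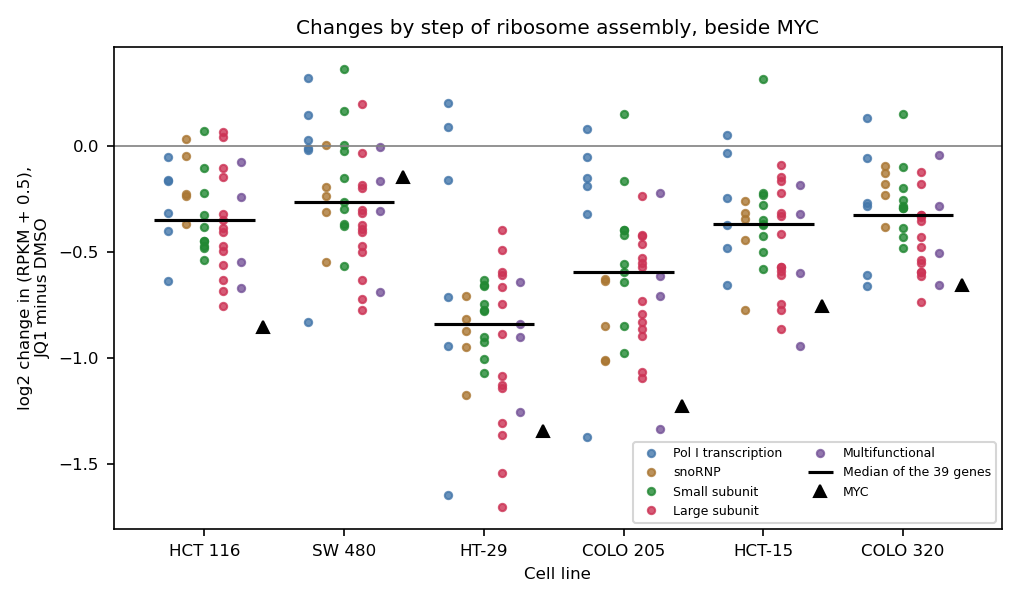
Change of each of the 39 genes in each cell line (vertical axis, JQ1 minus DMSO in log2(RPKM + 0.5); points, genes, coloured by step; black bars, medians of the 39 genes) beside that of MYC (triangles). The medians run from -0.26 in SW 480 to -0.84 in HT-29, and MYC runs from -0.14 to -1.35 in the same lines.

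The size of the response differed between lines for all 39 genes in the F test of the 6 within-line changes, a result that 93.3% of all genes tested shared. Each line was then set against the mean of the other 5. These contrasts share libraries and balance out for each gene, so a deep fall in HT-29 makes the effect elsewhere appear higher. They are given side by side only. The effect in HT-29 was lower than elsewhere for 35 genes and higher for 2, against 29% and 35.5% of all genes tested, with NOP16 (-1.03), RRS1 (-0.99) and RRP12 (-0.91) farthest down. UBTF and RRN3, both of the Pol I step, were the 2 that went the other way in HT-29 (0.39 and 0.22). In COLO 205 the effect was lower for 27 genes and higher for 6, against 33.4% and 34.1%, with FBL (-0.53), TCOF1 (-0.50) and LYAR (-0.49) lowest. SW 480 was the reverse: the effect was higher, that is less negative, for 36 genes and lower for 2, against 32.1% and 33.5%, with WDR3 highest (0.79). UTP20 and GRWD1 were the 2 that fell more in SW 480 than elsewhere (-0.23 and -0.15).

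In the remaining lines most genes fell less than elsewhere. In HCT 116 the effect was higher for 24 genes and lower for 4, against 32.5% and 28.4%. In COLO 320 it was higher for 25 and lower for 6, against 32.4% and 32%, and UBTF fell more there than in the other lines (-0.51). The 6 became 3 with total reads as the divisor or with median centring. In HCT-15 it was higher for 20 and lower for 7, against 34.8% and 25.9%, but with total reads as the divisor 8 were higher and 12 lower. MYC changed most in HT-29 and COLO 205 and least in SW 480, and the medians of the 39 genes had the same lines at those ends. Each point of that ordering is 1 line, and MYC and the 39 genes were read from the same libraries.

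With DMSO alone, all 39 genes differed between the 6 lines, as did 98.8% of all genes tested. Against the mean of the other 5 lines, HCT 116 had 36 of 39 genes higher and 2 lower, against 41.2% and 46% of all genes tested, with a median difference of 0.29. HCT-15 had 25 higher and 8 lower, against 38.9% and 46.9%, with a median of 0.30. COLO 320 had 20 higher and 16 lower, against 43.3% and 46.7%, with a median of 0.05. SW 480 had 10 higher and 25 lower, against 44.4% and 44.1%, with a median of -0.14. HT-29 had 10 higher and 23 lower, against 41.2% and 47%, with a median of -0.08. COLO 205 had 7 higher and 28 lower, against 42.1% and 46.6%, and the lowest median, -0.35. With total reads as the divisor or quantile scaling, the genes higher were 6 in HT-29 under both and 4 and 3 in COLO 205. These contrasts share their DMSO libraries and are given side by side only. From the highest median to the lowest the lines stood in the order HCT-15, HCT 116, COLO 320, HT-29, SW 480 and COLO 205, and differences between neighbours in that order were not tested.

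Single genes departed from that order. BYSL stood at 128 ± 0.136 RPKM (SD, n = 3) in COLO 205 with DMSO and at 21.5 to 37.4 RPKM in the other lines, a difference of 2.19 in the line with the lowest median. BYSL nevertheless fell there by nearly the same amount as in HT-29 (-0.97 and -0.92). MYBBP1A was highest in HCT-15, at 76.3 ± 2.43 RPKM, and lowest in COLO 205, at 16.4 ± 0.164 RPKM. PPAN ran from 10.5 ± 0.654 RPKM in SW 480 to 47.3 ± 0.605 RPKM in HCT-15. WDR3 was highest in COLO 320, at 60.7 ± 0.335 RPKM, and lowest in COLO 205, at 14.3 ± 0.383 RPKM. RRN3 was highest in HCT 116, at 32.2 ± 0.44 RPKM, and lowest in HCT-15, at 11.3 ± 0.201 RPKM. FBL was highest in HT-29, at 375 ± 6.11 RPKM, and lowest in COLO 205, at 157 ± 2.77 RPKM.

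MYC itself was far more abundant in COLO 320 than in any other line. COLO 320 gave 1856, 1834 and 1856 RPKM with DMSO and 1172, 1172 and 1184 RPKM with JQ1. HCT 116 gave 191, 184 and 194 RPKM with DMSO and 106, 106 and 103 RPKM with JQ1. COLO 205 gave 64.4, 64.1 and 63.7 RPKM with DMSO and 26.7, 26.8 and 27.7 RPKM with JQ1. DMSO levels of MYC were thus 1849 RPKM in COLO 320 and 64.1 to 189.8 RPKM elsewhere, a difference of 4.24 from the mean of the other lines, while the median of the 39 genes in COLO 320 differed from the other lines by 0.05. HT-29 gave MYC levels of 107, 109.8 and 109.7 RPKM with DMSO and 41.6, 43.1 and 43.04 RPKM with JQ1. SW 480 gave 77.5, 75.6 and 74.4 RPKM with DMSO and 68.02, 68.8 and 68.9 RPKM with JQ1. HCT-15 gave 85.2, 87.4 and 86.7 RPKM with DMSO and 50.3, 49.3 and 53.9 RPKM with JQ1. With JQ1, MYC in COLO 320 still stood above the DMSO level of every other line. HEXIM1 read 28.2, 28.1 and 28.3 RPKM with DMSO and 60.2, 58.7 and 59.2 RPKM with JQ1 in HCT-15. COLO 205 gave 8.35, 8.81 and 9.13 RPKM with DMSO and 59.4, 58.03 and 57.4 RPKM with JQ1 for HEXIM1. Treated libraries of HEXIM1 lay above all controls in these lines. The other 4 lines had HEXIM1 means of 7.98 to 25.5 RPKM with DMSO and of 36.6 to 66.5 RPKM with JQ1, again without overlap.

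**Figure D5:**
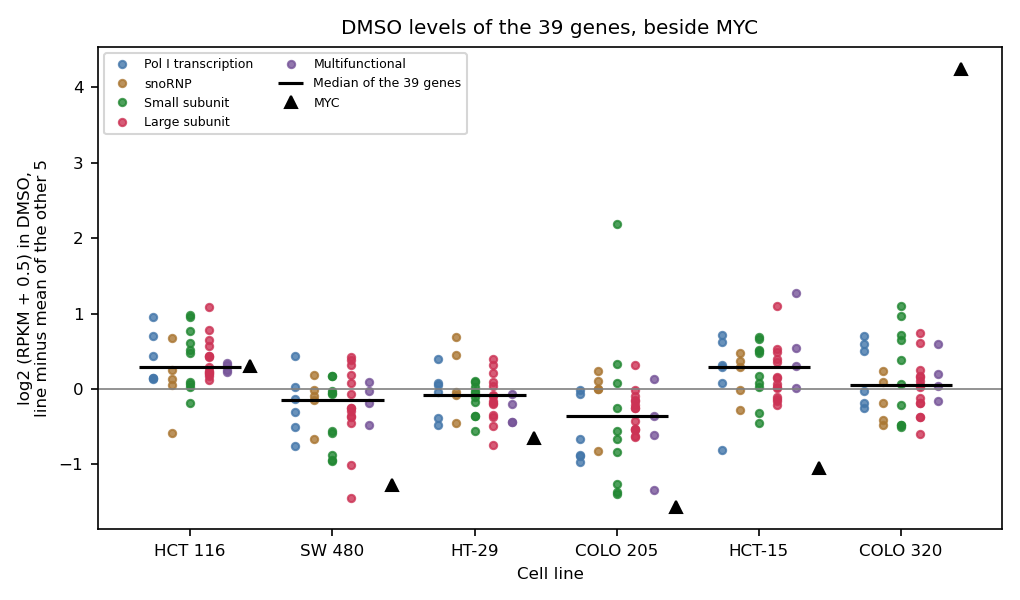
Level of each of the 39 genes with DMSO in each cell line, as log2(RPKM + 0.5) minus the mean of the other 5 lines (vertical axis; points, genes, coloured by step; black bars, medians of the 39 genes), beside MYC (triangles). MYC lies at 4.24 in COLO 320, where the median of the 39 genes is 0.05, and BYSL lies at 2.19 in COLO 205.

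Counted as reads, the 39 genes took up a smaller share of each library with JQ1. In HT-29 the share fell from 0.707% ± 0.0061 to 0.378% ± 0.0026 of the reads in genes (SD, n = 3). COLO 205 went from 0.609% ± 0.005 to 0.39% ± 0.0038, and HCT-15 from 0.991% ± 0.0055 to 0.706% ± 0.0056. The share was thus highest in HCT-15 and lowest in COLO 205 with DMSO, and lowest in HT-29 with JQ1. HCT 116 went from 0.94% ± 0.011 to 0.763% ± 0.0023, COLO 320 from 0.844% ± 0.0055 to 0.689% ± 0.0034, and SW 480 from 0.673% ± 0.0097 to 0.567% ± 0.0032. In each line all JQ1 libraries lay below all DMSO libraries, and NPM1 and NCL together made up 24.2% to 30.4% of these reads. No test was made of this sum, which was chosen with the changes known.

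A further 111 genes of the pathway were read beside the 39, from a list by step: 10 for Pol I, 12 for snoRNPs, 44 for the small and 45 for the large subunit. In the mean over the lines, 95 of the 111 were lower and 8 higher, with a median of -0.31, against 48.3% and 40.2% of all genes tested. With the line as the unit 64 were lower, against 20.1%. Lower per line, beside the shares of all genes given above, were 91 in HCT 116, 74 in SW 480, 94 in HT-29, 93 in COLO 205, 86 in HCT-15 and 84 in COLO 320. By step, their medians in the mean over the lines were -0.36 for Pol I, -0.32 for snoRNPs, -0.27 for the small and -0.30 for the large subunit. The order of the steps among the 39 genes was thus not repeated in the 111. BRIX1, a large-subunit factor, fell most, 2.05-fold in the mean and from 100.3 ± 1.9 to 39.1 ± 0.988 RPKM in HT-29. GAR1, a core protein of the H/ACA particles, fell 1.87-fold, by 0.71 to 1.05 over the lines, and DKC1, its partner in those particles, by 0.24 to 1.18. POLR1H, a small subunit of Pol I, fell 1.79-fold, by 0.68 to 1.06. Unlike the 39 genes as a group, POLR1H fell most in HCT-15 and least in HT-29.

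A few genes of the longer list rose, and with the line as the unit TAF1D and BMS1 had no call (adjusted p = 0.252 and 0.304). NOP53, a large-subunit factor, rose 1.31-fold in the mean and in 5 lines, most in COLO 205, from 67.8 ± 3 to 118 ± 4.63 RPKM. TAF1D, a subunit of the Pol I selectivity factor, rose in 4 lines, most in COLO 320 (0.48), and fell in HCT-15 (-0.31). The rise of TAF1D in HT-29 (0.11) was lost with total reads as the divisor (0.04) and without JQ1 replicate 2 of that line (0.07, adjusted p = 0.119). In COLO 205, TAF1D had no call in the main fit. It was called higher there with each line fitted alone, median centring, quantile scaling or total reads (adjusted p from 0.00561 to 0.045). BMS1, a GTPase of the small subunit, rose in HCT-15 (0.35), COLO 320 (0.29) and HCT 116 (0.10). In HT-29 BMS1 was called lower (-0.07), a call that was lost without DMSO replicate 2, JQ1 replicate 1 or JQ1 replicate 2 of that line (adjusted p from 0.0622 to 0.131). It was also lost with median centring, quantile scaling or each line fitted alone (adjusted p from 0.0555 to 0.0674). In COLO 205, BMS1 had no call but was called lower without JQ1 replicate 1 of that line (-0.08, adjusted p = 0.0279). The same held without JQ1 replicate 3 of COLO 320 (adjusted p = 0.0435) or DMSO replicate 1 of SW 480 (0.0387).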

How the data were processed

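RNA of 6 colon cancer lines, treated with DMSO or JQ1, was read as 1 deposited table of RPKM values made by the authors. GSNAP, DESeq, limma and the build name NCBIM37, which is that of a mouse assembly, stand in the submitters' processing notes. Their versions, the counting, the annotation and the strand setting are not given in the sources used here. Replicates are called triplicates in the labels, which do not say whether they were separate cultures, so a p-value here speaks of spread among these libraries, which may be technical.

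Entrez identifiers were matched to symbols through the RefSeq GRCh38.p14 table, 24519 of 26468. Columns were tied to samples by the labels, and 0 value columns were left without a sample. Values were taken as log2(RPKM + 0.5) for the 15542 genes with at least 1 RPKM in at least 3 libraries. One model with a mean for each of the 12 groups was fitted with limma 3.58.1 (R 4.3.3) with 24 residual and 2.97 prior degrees of freedom. Within-line changes, their mean, F tests between lines and each line against the other 5 were contrasts of it, adjusted by Benjamini-Hochberg over all genes tested and called at 0.05. The fit was tested on simulated reads in which a small part of the genes changed alike in every line. That test covered the mean over the lines only, not the calls in single lines. Python 3.11.15 with pandas 2.3.3 and numpy 2.4.6 handled the tables, and matplotlib 3.10.9 the plots.

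RPKM values of all 23499 genes above 0 were whole multiples of the worth of 1 read (100% within 0.01 reads), which gave reads per library of 18.8 to 53.1 M. The authors' divisor was not this sum of reads, and their ratio moved with treatment in some lines. In replicate 1, reads over divisor with DMSO and with JQ1 were 0.879 and 0.953 in HCT-15, and 0.966 and 1.013 in HT-29. They were 0.920 and 0.937 in HCT 116, 0.931 and 0.944 in SW 480, 1.004 and 0.988 in COLO 205, and 0.892 and 0.895 in COLO 320. Replicates of a group differed by more than sampling noise (chi-square per gene from 1.22 to 3.2).

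The 39 genes, the 111 further pathway genes and the marker lists (colon epithelium, fibroblast, leukocyte, endothelium and housekeeping genes) were chosen with earlier results of these data known. Values per library are given for the gene with the lowest and the gene with the highest mean change in each step, the 4 genes with the smallest F-test p, and MYC and HEXIM1. Of the 111 genes, the 3 lowest and 3 highest by mean change are named. Alternatives covered the pseudocount, the low-value filter, scaling, the divisor, recovered reads, the replicate number, the unit of replication, and leaving out libraries or lines.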

Additional observations from a re-analysis of the deposited data

Results flagged for a closer look

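The response to JQ1 differed between the 6 lines for all 39 genes in limma's F test. For 6 of them the lines also went in opposite directions, with calls of both signs, which 33.6% of all genes tested had. WDR3 rose in SW 480 and fell in the other lines (adjusted p of the F test = 6.07e-18). UBTF rose in HT-29 and fell in 4 lines (5.14e-17). RRP12 fell in HT-29 and rose in 4 lines (adjusted p of 1e-16). POLR1A fell in HT-29 and rose in 3 lines (6.02e-15). RRN3 rose in SW 480 and HT-29 and fell in HCT 116 and COLO 205 (4.34e-12). BOP1 rose in SW 480 and fell in 3 lines (1.09e-12).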

How the results depend on the processing

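The number of the 39 genes called lower kept within 1.5 times of its value in each line and in the mean under every alternative run, and the medians stayed negative, between -0.48 and -0.35 in the mean over the lines and between -0.91 and -0.23 in single lines. Counts of genes called higher moved more. In HCT 116, 0 became 3 with quantile scaling, 2 with voom on recovered reads, and 1 with a replicate block or with each line fitted alone. In COLO 205, 2 became 1 with no filter, with a replicate block and with each line fitted alone, and in HT-29, 2 became 1 with total reads as the divisor. In the mean, 0 became 2 with median centring, quantile scaling or HT-29 left out, and 1 without HCT 116, COLO 205, HCT-15 or COLO 320. Falls of 2-fold went from 6 to 2 in COLO 205 with quantile scaling, from 0 to 1 in HCT-15 with total reads, and from 0 to 1 in the mean without HCT 116, HCT-15 or COLO 320.

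With DMSO, genes higher than in the other lines went from 10 to 6 in HT-29 with total reads or quantile scaling, and from 7 to 4 and 3 in COLO 205. The effect in HCT-15 against the others had 12 genes lower with total reads or quantile scaling (7 before) and 8 and 9 higher (20 before). In COLO 320, 6 lower became 3 with total reads or median centring. The hexamer was in 11 windows and in 2 when the 250 bases before the start were read alone. With 1 library left out at a time, genes higher ranged from 0 to 1 in HCT 116, from 1 to 2 in COLO 205 and from 0 to 1 in the mean, 2-fold falls in COLO 205 from 4 to 6, and the COLO 320 effect was lower for 4 to 6. Over the changes of single genes, leaving out 1 library at a time ended 10 calls and added 14, and 9804 changes, called or not, stayed on their side of the threshold. For a change within 1 line, most of these fits left out a library of another line. Such a fit keeps the change itself and alters only the shared spread, so most of the 9804 could hardly have moved.

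Signs turned for POLR1A in the mean without HT-29 (0.072), RRN3 without SW 480 (-0.0401), RRP12 without HCT-15 (-0.0409) and NOP56 in COLO 320 with quantile scaling (0.0033). The cause was not tested. The replicate numbers did not pair the libraries. For this, each library was taken as its deviation from its group mean, gene by gene. Correlations of these deviations between same-numbered DMSO and JQ1 libraries of a line ran from -0.148 to 0.0492 over 18 pairs. Between libraries of different number they ran from -0.115 to 0.132. A replicate block left 37 genes lower in the mean, ended 2 single calls and added 1. Depth sets few limits here, since the fewest reads of any of the 39 genes in a library was 306.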
